A study of Arabidopsis thaliana with 2 samples.

Results

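The long protected intervals described here are the members of a deposited nucleosome list with the greatest distance from start to end. They were chosen by that measured length alone, with the limit stated under the processing, and they number 44503 of 397452 listed intervals, or 11.2%. Their median length was 172 bp and their maximum 180 bp. They are set against 163170 comparison intervals of about nucleosome core size, from 130 bp upward with a median of 137 bp, which make up 41.1% of the list. The list comes from 2 libraries of Arabidopsis thaliana seedlings of 2 to 3 weeks grown in long days, 1 from nrpe1 and 1 from the Col-0 strain. The label nrpe1 names the gene for the largest subunit of RNA polymerase V, and no allele is given. Both libraries hold DNA left after micrococcal nuclease (MNase) digestion and cut from a 2% agarose gel. The list is one pool of both libraries with no mark of origin, so nrpe1 and Col-0 were not compared. There are no replicates, and the read depth is unknown.

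MNase cuts the linker DNA between nucleosomes and spares the DNA wound around the histone core. A nucleosome that also holds the linker histone H1, called a chromatosome, protects a somewhat longer stretch than the core alone, and so does a core that was trimmed less far. In Arabidopsis the chromatin around the centromeres is rich in transposons, in DNA methylation and in dimethylated histone H3 lysine 9, while the chromosome arms carry most of the genes. RNA polymerase V makes the non-coding transcripts that guide RNA-directed DNA methylation, and SWI/SNF complexes move nucleosomes with the energy of ATP. The sources used here do not tell how the start and the end of an interval were set, so a listed length is not necessarily the length of a sequenced fragment.

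Lengths in the list run from 120 to 180 bp, and the long class is the upper tail of one continuous distribution. Each length from 120 to 139 bp had between 10270 and 11276 intervals. The number was 4073 at 160 bp, 3002 at 170 bp and 2279 at 180 bp. No separate mode stood within the long class. Together the long intervals covered 7.49 Mb, or 6.29% of the genome, and the comparison intervals 21.3 Mb, or 17.9%.

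Most properties changed gradually across the length limit. Just inside it, among the 16115 intervals of the shortest 5 lengths of the class, 24.9% lay in gene-poor windows and 18.3% in pseudogenes, and 67.4% overlapped a neighbour. Just outside it, among the 19087 intervals of the 5 lengths below, from 160 bp, the values were 24.7%, 17.7% and 67.1%. Within the long class the 14520 longest intervals, of the top 6 lengths, reached 26.5%, 18.9% and 70.0%. Among comparison intervals 20.1% lay in gene-poor windows and 14.5% in pseudogenes, close to the 19.3% and 13.7% of the shortest intervals, those under 130 bp.

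**Figure D1:**
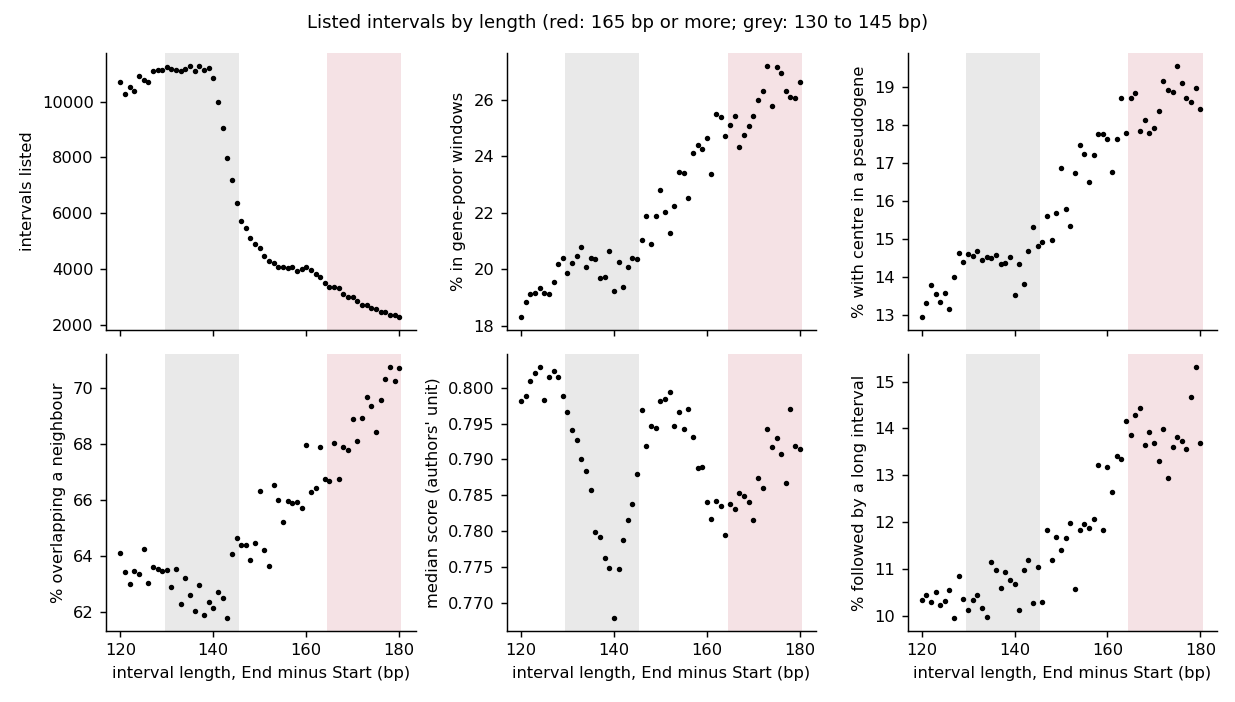
Each point is 1 length in bp (x axis) over the whole list. The panels give the number of intervals, the percent in gene-poor windows, the percent with the centre in a pseudogene, the percent overlapping a listed neighbour, the median score, and the percent whose next interval is long. Red shading marks the long class and grey the comparison class. The location and overlap panels climb above the comparison class, while the score panel has a minimum at 140 bp, at 0.768.

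Long intervals made up more of the list in gene-poor windows than elsewhere. Windows of 500 kb with a density of protein-coding genes under 50% of their chromosome's median are named gene-poor here, and all other windows arms. Most gene-poor windows lie around the centromeres, but the sets are defined by gene density and not by position. Of all listed intervals in gene-poor windows 13.7% were long (11499 of 84045, exact 95% interval 13.5 to 13.9%). On the arms 10.5% were long (33004 of 313407, 10.4 to 10.6%). The intervals given for shares are Clopper-Pearson limits, which cover counting error only and take neighbouring intervals as independent. The share was higher in gene-poor windows on 5 of 5 chromosomes. On chromosome 1 it was 14.4% in gene-poor windows and 10.6% on the arms. On chromosome 2, where the groups lay closest, it was 13.4% in gene-poor windows and 11% on the arms.

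The density of long intervals therefore rose more steeply towards gene-poor sequence than that of comparison intervals. There were 0.622 long intervals per kb in gene-poor windows and 0.328 per kb on the arms, a ratio of 1.90. For comparison intervals the densities were 1.78 per kb in gene-poor windows and 1.29 per kb on the arms, a ratio of 1.37. Gene-poor windows held 25.8% of the long intervals (25.4 to 26.2%) and 20.1% of the comparison intervals (19.9 to 20.3%). That is a ratio of shares of 1.28 ± 0.0598 (SD over 5 chromosomes), with a range over chromosomes from 1.21 to 1.37. The chromosomes give the spread along the genome. They are not biological replicates, and no test was made.

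Chromosomes as wholes differed little. The share of long intervals averaged 11.2 ± 0.238% over them (SD, 5 chromosomes), with the lowest value, 10.9%, on chromosome 5 and the highest, 11.6%, on chromosome 2. On average 1 long centre was listed every 2.68 kb. Between successive long centres the median distance was 1430 bp, with quartiles of 538 and 3558 bp and a maximum of 78525 bp.

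The share of long intervals was lower in windows richer in genes, with a nearly level stretch from 50 to 150 genes per Mb. In the 7 windows with under 20 protein-coding genes per Mb, 15.4% of listed intervals were long (2884 of 18672), and single windows ran from 14.5 to 17.7%. The 14 windows with 20 to 50 genes per Mb had 13.9%, and the 11 windows with 50 to 100 genes per Mb had 12.3%. The 9 windows with 100 to 150 genes per Mb had 12.2%. At 150 to 200 genes per Mb the share was 11.4%, and at 200 to 250 it was 10.8%. In the 142 windows with 250 or more it was 10.4% (10.2 to 10.5%). Single windows of this gene-rich group ran from 8.50 to 12.8%.

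The highest share in a 500 kb window was on chromosome 1 from 15000001 to 15500000, where 439 of 2483 intervals were long, or 17.7%. Its neighbour from 14500001 to 15000000 had 16.8%, with 160 of only 953 intervals. The lowest share, 8.50%, was on the arm of chromosome 5 from 18500001 to 19000000, with 105 of 1235. Among windows of 50 kb the largest number of long intervals was 74 of 366, or 20.2% (16.2 to 24.7%), on chromosome 5 from 11800001 to 11850000. The next were 69 of 367 on chromosome 5 from 11900001 to 11950000 and 69 of 373 on chromosome 4 from 3950001 to 4000000. All of these 3 small windows were gene-poor. The 1 Mb of chromosome 2 that contains the known insertion of mitochondrial DNA, had 831 long intervals of 5733, or 14.5% (13.6 to 15.4%).

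**Figure D2:**
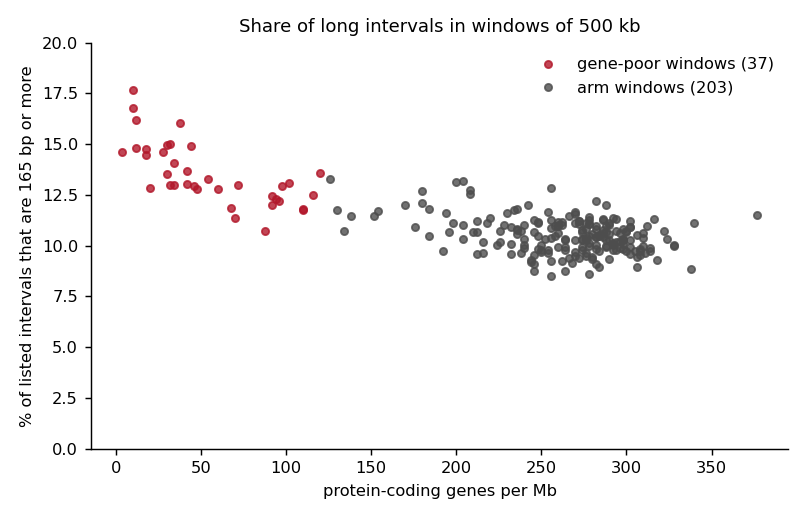
Each point is a 500 kb window, with protein-coding genes per Mb on the x axis and the percent of its listed intervals that are long on the y axis. The 37 gene-poor windows (red) run from 10.7 to 17.7% and the 203 arm windows (grey) from 8.50 to 13.3%, so that the groups overlap.

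By annotated place, the share of listed intervals that were long was highest in pseudogenes, at 13.7%, and in distant intergenic sequence, at 13.2%. Per kb of sequence the order differed. There were 0.890 long intervals per kb in pseudogenes, 0.420 in protein-coding genes, 0.279 in intergenic sequence and 0.110 in flanks. The gene annotation names many transposon remnants as pseudogenes, but which ones was not determined. Of the long intervals 18.6% had their centre in a pseudogene (18.2 to 19.0%), and of the comparison intervals 14.5% (14.3 to 14.6%). The ratio was 1.29 ± 0.0526 (SD over 5 chromosomes). Intergenic sequence over 1 kb from any protein-coding gene held 12.6% of the long and 10.3% of the comparison intervals, a ratio of 1.22 ± 0.0554. Protein-coding genes held 60.9% of the long and 66.3% of the comparison intervals, a ratio of 0.918 ± 0.00870. The flanks, up to 1 kb outside such genes, held 5.59% of the long and 6.37% of the comparison intervals, a ratio of 0.878 ± 0.0339. Each of these 4 ratios had the same direction on 5 of 5 chromosomes. The counts behind them were 27096 long intervals in protein-coding genes, 8272 in pseudogenes, 5593 in intergenic sequence and 2489 in flanks.

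Place and location along the chromosome were then crossed, since pseudogenes are concentrated in gene-poor windows. In pseudogenes the share of long intervals differed little between the locations. It was 14.0% in gene-poor windows (13.4 to 14.7% over chromosomes) and 13.1% on the arms (12.2 to 13.5%). Over all listed intervals it was 13.7% in gene-poor windows and 10.5% on the arms. In intergenic sequence it was 14.5% in gene-poor windows (13.6 to 15.8% over chromosomes), but 10.8% on the arms (9.51 to 11.9%). In protein-coding genes it was 11% in gene-poor windows (10.2 to 11.9% over chromosomes) and 10.4% on the arms (10.1 to 10.7%), so that genes of gene-poor windows stayed close to genes elsewhere. In flanks it was 11.6% in gene-poor windows and 9.82% on the arms.

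Within the arms, the ratio of long to comparison shares was closer to 1 for protein-coding genes, at 0.986. The intergenic ratio there was 1.02, and the flank ratio 0.924. The pseudogene ratio was 1.3 on the arms and 1.03 in gene-poor windows. In gene-poor windows protein-coding genes instead had a ratio of 0.780. The pseudogene ratio on the arms was as large as over the whole genome.

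Smaller classes of gene held few long intervals. Transcribed pseudogenes had 552 of 5127, or 10.8% (9.93 to 11.6%), below the 13.7% of other pseudogenes. The genes of tRNAs, short genes of RNA polymerase III, had 39 of 414, or 9.42% (6.78 to 12.7%). Genes of other small RNAs had 40 of 378, or 10.6%, and the remaining non-coding RNA genes 422 of 4260, or 9.91%. The class of other small RNAs was defined to include ribosomal RNA genes. The limits for tRNA and other small RNA genes include the 11.2% of the whole list, so no difference was detectable at these counts, whereas those of the remaining non-coding RNA genes (9.02 to 10.8%) lie below it. On the arms, where 3700 of these 4260 intervals lie, they had 9.68% (8.74 to 10.7%), limits that include the 10.5% of all arm intervals.

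**Figure D3:**
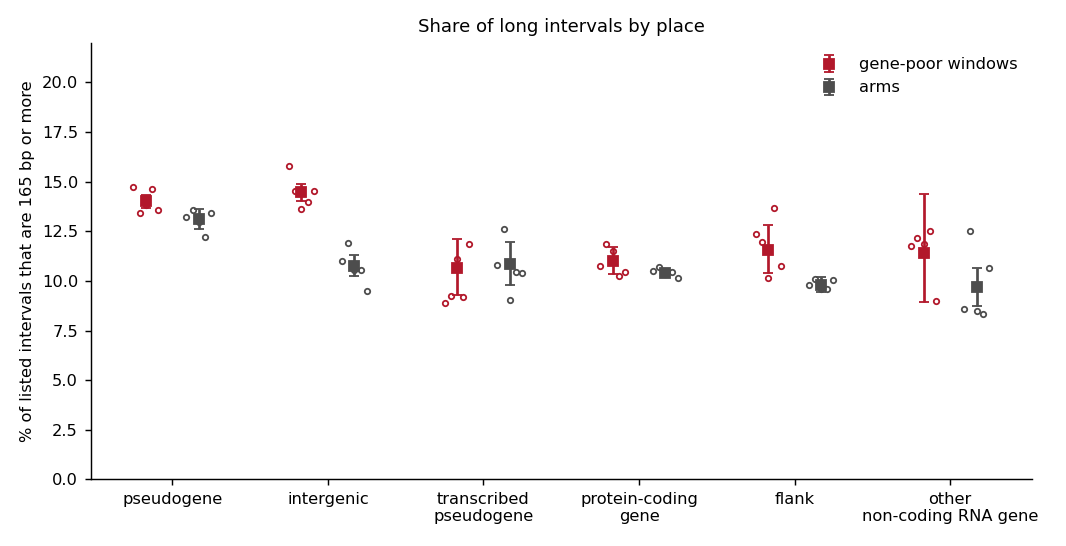
For each place, squares give the percent of listed intervals that are long in gene-poor windows (red, left) and on arms (grey, right), with exact 95% limits as bars. Open circles are the 5 chromosomes. In pseudogenes both squares stand at 13.1% or higher, whereas in intergenic sequence 14.5% in gene-poor windows stands against 10.8% on the arms.

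Inside protein-coding genes the share of long intervals was lowest a short way in from the gene ends and higher deep in the gene body. Under 100 bp inside the nearest end it was 10.4% (1262 of 12176). The share was 9.06% at 100 to 200 bp inside the nearest end (1695 of 18707, 8.65 to 9.48%). It was 9.71% at 200 to 500 bp, 10.4% at 500 to 1000 bp and 11.4% beyond 1000 bp (9243 of 80863, 11.2 to 11.7%). The lowest chromosome beyond 1000 bp had 11.2%, above the 9.83% of the highest chromosome at 100 to 200 bp. On the arms alone the shares were 9.03% at 100 to 200 bp and 11.4% beyond 1000 bp. Only long genes have positions beyond 1000 bp. In the first 50 bp inside the end the share was 11.5% (597 of 5200), above each of the next 8 bins of 50 bp, which ran from 8.59 to 10.3%. Outside protein-coding genes the share was 10.3% within 200 bp, 9.66% at 200 to 500 bp, 10.7% at 500 to 1000 bp and 13.4% farther away. These zones include pseudogenes and RNA genes. Of the 105700 intervals farther away, 71866 lay in gene-poor windows, where the share was 14.1%. On the arms the share farther away was 11.8%, against 10.8% in intergenic sequence there. Of the intervals farther away over the whole genome, 42241 lay in no gene of any class. Starts and ends of genes are mixed here because the gene annotation used gives no strand.

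Gene length made a small difference. In genes of 1 to 2 kb 9.71% of listed intervals were long (9.46 to 9.96%), in genes of 2 to 4 kb 10.3%, and in the 3250 genes of 4 kb or longer 11.2% (8226 of 73465). Genes under 1 kb had 10.2%. Of the 27444 protein-coding genes 15193, or 55.4%, held at least 1 long centre, and 91.8% held at least 1 comparison centre. Of the 3917 pseudogenes 73.2% held a long centre, and 91.7% a comparison centre. The median gene in both groups held 1 long interval.

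**Figure D4:**
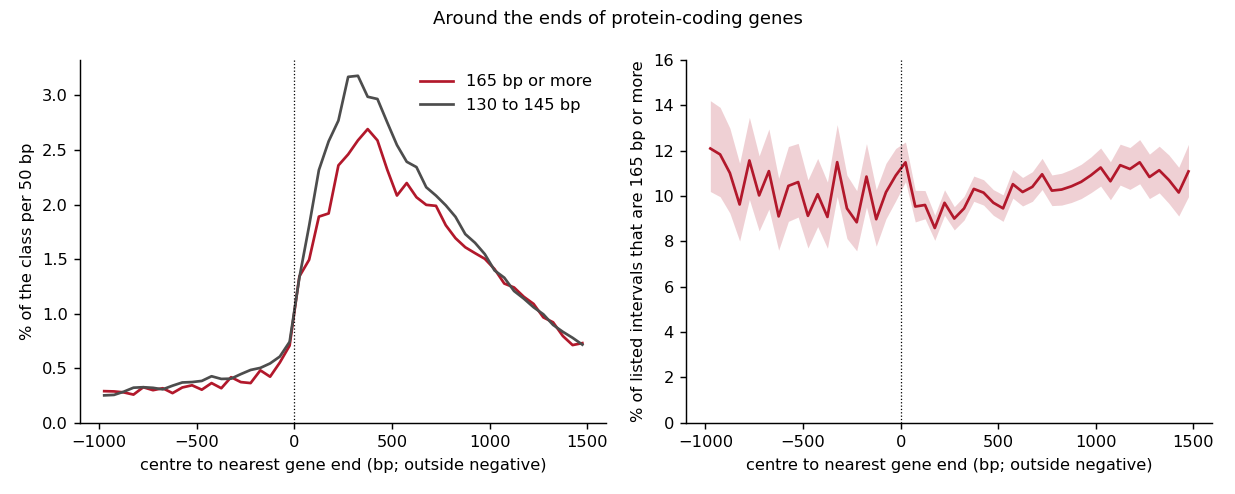
The x axis is the distance in bp from an interval's centre to the nearest end of a protein-coding gene, with the inside positive. The left panel gives the percent of all long (red) and of all comparison intervals (grey) in bins of 50 bp. The right panel gives the percent of listed intervals that are long, with exact 95% limits shaded. The grey curve stands above the red one from 50 to 1000 bp inside, and the share in the right panel is 8.59% at 150 to 200 bp.

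The genes with the most long intervals were very long genes of the arms, and they were picked for that count, so their shares are a description. BIG (AT3G02260), a giant protein needed for polar auxin transport, held 22 long intervals among 107. This is 20.6% (13.4 to 29.5%), against 10.4% over all protein-coding genes. It lies on chromosome 3. AT1G58602 had 15 of 60, or 25%, and AT1G72270 had 12 of 49, or 24.5%. UPL2 (AT1G70320), a ubiquitin-protein ligase, had 13 of 73, and GRV2 (AT2G26890), known for its role in gravitropism, had 12 of 75. MDN1 (AT1G67120), which encodes midasin, a factor of ribosome assembly, had 13 of 113, or 11.5%, close to the background. AT4G02660, AT4G36080 and AT1G48090 had 14 or 15 long intervals each. Counted from 170 bp upward BIG had 12.1%, against 6.62% in protein-coding genes at that limit. MDN1 had 22.1% from 160 bp upward, against 15% in protein-coding genes (38898 of 259918). Among intervals scoring at or above the list median MDN1 had 1.96%, against 10.3% in protein-coding genes.

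SYD (AT2G28290), a remodelling ATPase of the SWI/SNF class, was also among the 10, with 13 long intervals of 82, or 15.9% (8.72 to 25.6%). It lies on chromosome 2. The 5 pseudogenes with the most long intervals all lay in gene-poor windows. AT3G31630 had 15 of 52, or 28.8% (17.1 to 43.1%), and AT3G30668 had 16 of 65, or 24.6%. AT1G40101 held 17 of 91, AT5G29075 16 of 87 and AT4G06656 15 of 67. From 170 bp upward AT3G30668 had 13.8% and AT5G29075 10.3%, against 8.84% in all pseudogenes at that limit.

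NRPE1 (AT2G40030), the mutated gene, held 9 long intervals among 48, or 18.8%, against 10.4% over all protein-coding genes. The share rests on few intervals, and no limits were computed for it. NRPE1 was named after its values were seen, so its share is a description. The gene lies on chromosome 2. The 9 were spread over the gene from 1848 bp after its lower coordinate onward. The first lay at 16716223 to 16716393 with a score of 0.875, the second at 16717007 to 16717180 with 0.885 and the third at 16717550 to 16717718 with 0.560. The last, at 16722059 to 16722233 with a score of 0.875, overlapped neighbours on both sides. Of the 9 long intervals 5 overlapped no neighbour.

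Gene lists with a bearing on the study were counted next, and the shares of 6 of the 7 had limits that include the 10.4% of all protein-coding genes. The RdDM machinery (18 genes) had 54 long of 434 intervals, or 12.4% (9.49 to 15.9%), and 16 of its genes held at least 1. Over all protein-coding genes 55.4% held at least 1, and of those of 4 kb or longer 88.0% did. Beside NRPE1, DCL3 (AT3G43920), the Dicer enzyme that makes the small RNAs of this pathway, had 8 of 35. RDR2 (AT4G11130), which makes their double-stranded precursors, had 6 of 28. SUVH2 (AT2G33290), which helps bring RNA polymerase V to methylated DNA, had 0 of 20. Below the 10.4% of all protein-coding genes were also NRPD1, AGO4, AGO6, DRM2, DRD1, DMS3, SHH1, SUVH9 and HEN1. Above it were also NRPD2, RDM1, CLSY1, IDN2 and KTF1. The SWI/SNF subunits (13 genes) had 39 of 321, or 12.1% (8.78 to 16.2%), with BRM (AT2G46020), a remodelling ATPase, at 8 of 58. MINU1 (AT3G06010), another remodelling ATPase, had 7 of 28. SWP73B (AT5G14170) had 3 of 15, and SWP73A (AT3G01890), its paralogue, had 0 of 12.

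Genes known to carry RdDM had 9 of 72, or 12.5% (5.88 to 22.4%), and 5 of these were in ROS1 (AT2G36490), the DNA demethylase gene, among its 35. FWA (AT4G25530), silenced by methylation of its promoter, had 3 of 16. Polycomb-silenced developmental genes had 12 of 91, or 13.2% (7.0 to 21.9%). WUS (AT2G17950), which maintains stem cells of the shoot, had 2 of 7. Photosynthesis genes had 9 of 59, or 15.3% (7.22 to 27.0%), with LHCB2.1 (AT2G05100), a light-harvesting protein, at 2 of 5. Housekeeping genes had 3 of 78, or 3.85% (0.80 to 10.8%), and these wide limits just include the background. UBQ10 (AT4G05320), a polyubiquitin gene, had 1 of 13. Seed and pollen genes had 0 of 52, which allows a share of up to 5.77% by a floor of 3 counts and up to 6.85% by the exact limit. Among them were CRA1 (AT5G44120), a cruciferin with 13 intervals, and VGD1 (AT2G47040), a pectin methylesterase with 15.

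The authors' score separated long from comparison intervals hardly at all. The score has no stated unit or definition. Its median was 0.788 in long intervals (quartiles 0.689 and 0.861) and 0.783 in comparison intervals (0.686 and 0.862). The difference of 0.00477 ± 0.00221 (SD over 5 chromosomes) was positive on 5 of 5 chromosomes, but it is small beside the SD of 0.111 within the long class. It depended on where the comparison was made. On the arms the medians were 0.790 for long and 0.782 for comparison intervals, and in gene-poor windows 0.782 for long and 0.786 for comparison intervals.

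The score did not follow length in a simple way. The median was 0.803 at 124 bp, sank to 0.768 at 140 bp, returned to 0.799 at 152 bp, and was 0.784 at 160 bp and 0.793 at 175 bp. The comparison class spans the lowest of these values. Against the shortest intervals, those under 130 bp, with a median of 0.801, the long class was therefore lower. Very high scores were rarer in the long class than in the list as a whole. A score of 0.95 or more was reached by 472 long intervals, or 1.06% (0.968 to 1.16%), by 1.18% of the comparison intervals and by 1.98% of those under 130 bp. Among intervals between both classes in length the share was lower still, 0.832%.

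High-scoring long intervals lay more often in intergenic sequence than long intervals in general. Of the 472, 29.9% were intergenic and 34.5% were in gene-poor windows (30.2 to 39.0%), against 20.3% and 30.6% of the 1927 high-scoring comparison intervals. The 684 high-scoring intervals between both classes in length were much alike, with 30.3% intergenic and 35.4% in gene-poor windows. Over the whole list 20.4% of high-scoring and 10.6% of all intervals were intergenic. The highest score of a long interval, 0.986, was on chromosome 4 at 4010723 to 4010897, where it overlapped both neighbours. The next were 0.985 on chromosome 5 at 12044497 to 12044668, 0.985 on chromosome 5 at 12824233 to 12824410, 0.985 on chromosome 4 at 3966191 to 3966359 and 0.984 on chromosome 5 at 12866953 to 12867128. All 5 were intergenic, in gene-poor windows, and between 32135 and 59739 bp from the nearest protein-coding gene.

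At the other end, the lowest scores stood at the floor of the list. The lowest, 0.50, belonged to an interval on chromosome 3 at 7596115 to 7596292 in UGT84A2 (AT3G21560), a glycosyltransferase gene. Next to it in rank were one on chromosome 3 at 14798763 to 14798943 and one on chromosome 1 at 27000265 to 27000434 in CSTF64 (AT1G71800), an mRNA cleavage factor gene. Among the 2279 intervals of the maximum length, 180 bp, the highest score was 0.984, on chromosome 5 at 11961471 to 11961651. It was followed by 0.983 on chromosome 4 at 10512104 to 10512284, an isolated interval with 2101 and 4163 bp free on its sides. The third, 0.977, lay on chromosome 4 at 5606321 to 5606501 in AT4G08780.

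Long intervals overlapped a listed neighbour more often than comparison intervals. Of the long ones 68.8% overlapped at least 1 neighbour (30599 of 44503, 68.3 to 69.2%), and of the comparison ones 62.8% (62.5 to 63.0%). The difference was 5.98 ± 0.595 percentage points (SD over 5 chromosomes), in the same direction on 5 of 5. On the arms 65.0% of long and 59.1% of comparison intervals overlapped. In gene-poor windows 79.6% of long and 77.4% of comparison intervals did. Overlap on both sides was seen for 25.1% of long and 21.1% of comparison intervals. The overlaps themselves were alike, with a median of 41 bp for long and 40 bp for comparison intervals.

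A longer interval reaches a fixed neighbour more easily, so centres were also counted. A listed centre within 150 bp was found for 66.1% of long intervals (65.6 to 66.5%) and for 66.7% of comparison intervals (66.5 to 67.0%). By that measure the difference turned to -0.648 percentage points. Within 500 bp on either side, long intervals had 4.11 and comparison intervals 4.04 other centres on average. The 150 bp measure still depends on length, because overlap in the list was limited and a long interval's neighbours lie farther off, so neither measure separates crowding from length.

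Score fell with overlap in every length class, and least in the comparison class. Long intervals without overlap had a median score of 0.826, and comparison intervals without overlap 0.809. With overlap on both sides the medians were 0.746 for long and 0.752 for comparison intervals. Under 130 bp the median was 0.834 without overlap and 0.757 with overlap on both sides. Between both classes in length it was 0.826 without overlap and 0.754 with overlap on both sides. The sign of the score difference between long and comparison intervals therefore turned between free and crowded intervals.

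The nearest listed centre lay farther from long intervals. Its median distance was 124 bp for long intervals (quartiles 108 and 176) and 111 bp for comparison intervals (92 and 174). The difference of 13.0 ± 0.837 bp (SD over 5 chromosomes) was positive on 5 of 5. Measured from edge to edge the medians were -33 bp for long and -29 bp for comparison intervals, where a negative value is an overlap. No 2 adjacent intervals of the list overlapped by more than 49.7% of the longer one, and the distance between centres contains part of the interval's own length. The most frequent distance to the next centre was 105 to 110 bp after long intervals, with 6.51% of them in that bin of 5 bp. After comparison intervals it was 90 to 95 bp, with 5.50%.

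Free gaps, by contrast, were of similar size beside both classes. Among neighbours separated by 0 to 100 bp the median gap was 38 bp beside long intervals (21536 gaps) and 40 bp beside comparison intervals (88060 gaps). The centres across these gaps were 195 bp apart for long and 179 bp apart for comparison intervals, 16 bp more. The median lengths of the classes differ by 35 bp, of which only the part on the side of the gap enters such a distance. Gaps of 500 bp or more made up 9.08% of those beside long intervals and 10.3% of those beside comparison intervals.

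Counted over all pairs of centres, the peaks around long intervals stood farther out. Beyond the peak of overlapping neighbours they were also shallower. The peak due to overlapping neighbours stood at 111 bp for long and 94 bp for comparison intervals. The first peak beyond it stood at 217 bp for long and 184 bp for comparison intervals, 33 bp farther out. It was 1.26 times as high as the following trough around long intervals and 1.58 times around comparison intervals. The next peak stood at 385 bp for long intervals, 1.11 times its trough, and at 363 bp for comparison intervals, 1.17 times. On the arms alone the first peak was 1.27 times its trough for long and 1.63 times for comparison intervals, and in gene-poor windows 1.29 times for long and 1.50 times for comparison intervals. Pairs that skip an overlapping neighbour can fall into the peak near 217 bp, and their part in it was not tested. Among next centres alone, no peak stood near 217 bp after long intervals. From 150 to 250 bp their fullest bin was 150 to 155 bp, the lower edge of that range, with 2.02%. After comparison intervals the fullest bin was 170 to 175 bp, with 1.88%.

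**Figure D5:**
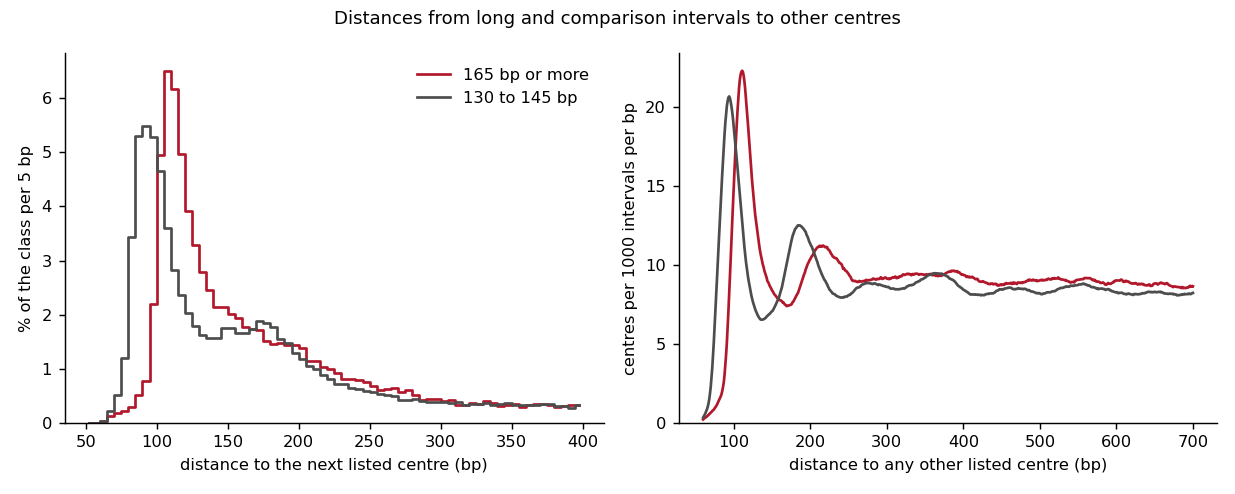
The left panel gives the distance in bp to the next listed centre (x axis) against the percent of the class in bins of 5 bp (y axis), for long (red) and comparison intervals (grey). The right panel gives all pairs of centres, smoothed over 21 bp, as centres per 1000 intervals per bp. In the right panel the red curve peaks at 111 and 217 bp and the grey one at 94 and 184 bp.

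Long intervals tended to follow one another in the list. The interval after a long one was itself long in 13.9% of cases (6186 of 44502, 13.6 to 14.2%), and after a comparison interval in 10.6% (10.4 to 10.7%). The difference of 3.31 ± 0.267 percentage points (SD over 5 chromosomes) was positive on 5 of 5. In gene-poor windows 16.3% of long and 13.0% of comparison intervals were followed by a long one, and on the arms 13.1% of long and 9.98% of comparison intervals, so that the difference held within both locations. With the next centre within 250 bp the shares were 14.8% after long and 10.4% after comparison intervals. The next interval was under 130 bp in 25.1% of cases after long and 27.3% after comparison intervals.

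Most long intervals nevertheless had no long neighbour. Of the 44503, 33014 stood alone and 11489, or 25.8%, had a long interval next to them on at least 1 side. Of the comparison intervals 20.02% had one. There were 4554 runs of 2, 633 runs of 3, 100 runs of 4, 14 runs of 5 and 2 runs of 6.

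Both runs of 6 were on chromosome 1. The first, in a gene-poor window, went from 15836353 to 15837345, with 3 intervals in intergenic sequence and 3 in the pseudogene AT1G42370. Its scores ran from 0.701 to 0.874, and it lay over 54 kb from the nearest protein-coding gene, AT1G42430. The second, on the arm, went from 25769051 to 25770179 through AT1G68630. The last 3 of its intervals also lay in PAN (AT1G68640), an overlapping gene model, which encodes a bZIP factor of flower development. Its scores ran from 0.588 to 0.883, and centres next to each other within it were between 105 and 378 bp apart.

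Crowding and length were related in a different way in each location. In gene-poor windows the share of long intervals was 12.5% with 0 or 1 other centres within 500 bp, 14.8% with 4 or 5, and lowest with 8 to 11 (1059 of 10563). On the arms it was 10.7% with 0 or 1, 10.7% with 4 or 5, and 8.56% with 8 to 11. Overlap in the list was limited, so fewer long intervals can stand within 500 bp. The part of this limit in the low shares was not tested. Long intervals with no centre within 500 bp on either side numbered 1602, or 3.60% of the class, close to the 3.75% of comparison intervals. Their median score was 0.838, and that of isolated comparison intervals was 0.815. Isolated intervals under 130 bp had 0.835, and those between both classes in length 0.836.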

How the data were processed

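MNase-digested DNA of 1 nrpe1 and 1 Col-0 library was aligned with Bowtie to TAIR10, per the submitters' processing notes. The sources used here name no Bowtie version, no nucleosome caller and no way of joining the libraries. The deposited score per nucleosome is the authors' own value, with no definition in the file header, and 0 columns hold single libraries. Start and end, the other deposited values, are positions in bp whose counting base is not stated, so coordinates are printed as listed.

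Long intervals had an end minus start of 165 bp or more and comparison intervals of 130 to 145 bp, and neighbours are adjacent rows by centre. The 37899 nuclear gene models came from the RefSeq annotation of TAIR10.1, with names and positions used on the files' TAIR10 coordinates, whose nuclear sequence was taken to be the same; no genome sequence was used. A centre in several genes went to tRNA, other small RNA, protein-coding, transcribed pseudogene, pseudogene and other RNA genes, in that order. No test was run, since there are no replicates and neighbouring intervals are not independent. Shares carry exact Clopper-Pearson 95% limits. Assignment and neighbour counts were checked on simulated intervals with Python 3.11.15, numpy 2.4.6 and pandas 2.3.3.

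Members, the 7 lists (67 genes, all found by locus) and measures were chosen with earlier results of these data known; the lists were rebuilt from gene names. Named were the 10 genes and 5 pseudogenes with most long intervals, the 5 highest and 3 lowest scores, the 3 best of maximum length, the longest runs and the 3 fullest windows of 50 kb. NRPE1, SUVH2, DCL3, RDR2, MINU1, BRM, SWP73A, SWP73B, FWA, CRA1 and VGD1 were added after their values were seen. The other members of the RdDM machinery were also named after that.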

Additional observations from a re-analysis of the deposited data

How the results depend on the processing

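Of 82 alternative values for the 9 comparisons of long with comparison intervals, 77 kept their direction, 38 stayed within the SD over chromosomes in the same direction, 39 moved beyond it in the same direction, and 5 turned. The differences below are long minus comparison and the ratios long over comparison. Against all shorter intervals the score difference turned to -0.00255, the overlap difference was 5.10 points and the excess of long next intervals 3.04 points. Against the intervals between both classes in length the ratios were 1.12 for gene-poor windows, 0.960 for protein-coding genes, 0.913 for flanks, 1.12 for pseudogenes and 1.12 for intergenic sequence. In that setting the score difference turned to -0.00436, and overlap differed by 3.18 points, nearest centres by 7 bp and long next intervals by 1.88 points. In gene-poor windows alone the ratios were 0.780 for protein-coding genes, 0.819 for flanks, 1.03 for pseudogenes and 1.06 for intergenic sequence. There the score difference turned to -0.00353, overlap differed by 2.22 points and nearest centres by 17 bp. On the arms alone the ratios were 0.986, 0.924 and 1.02 for protein-coding genes, flanks and intergenic sequence, the score difference 0.00753 and the nearest-centre difference 11 bp. Among intervals scoring at or above the median the ratios were 1.22 for gene-poor windows, 0.932 for protein-coding genes, 0.937 for flanks and 1.20 for pseudogenes, and the differences 4.55 points for overlap, 16 bp for nearest centres and 1.45 points for long next intervals. From 170 bp the differences were 0.00725 in score, 6.73 points in overlap, 14 bp and 2.40 points, and from 160 bp nearest centres differed by 12 bp and long next intervals by 4.10 points. By any overlap the flank ratio was 0.953, and the intergenic ratio was 1.16 with flanks of 500 bp and 1.3 with 2 kb. A centre within 150 bp turned the overlap difference to -0.648 points, and edge-to-edge distance turned the nearest-centre difference to -4 bp. Without overlapping intervals the score difference was 0.0167, and with next centres within 250 bp long next intervals differed by 4.46 points. The causes of these changes were not tested. For the named genes 3 settings were added once the values were known, and 40 of 45 values stayed within their exact limits. No paired analysis was possible because the list names no library and each genotype has 1.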
